A study of Homo sapiens with 4 samples.

Results

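Glycolysis turns glucose into pyruvate and lactate in the cytosol, and the genes considered here encode its enzymes, the carriers that bring glucose in or take lactate out, and a group of genes that cells switch on when oxygen is low. They were listed by name and function, with earlier results of these data known. The list held 33 genes, and a gene counted as measured when at least 1 probe set of the array was annotated to it alone. This held for 31 of the 33 genes, out of 19775 genes on the array that could be named in this way. CA9, a carbonic anhydrase, and SLC16A3, a lactate carrier, had no probe set with their symbol alone and are not analysed here. Where a gene had several probe sets, the brightest one on average stood for it. The level of SLC2A3 lay below the signal under which genes were left out, so 30 members entered the test, among 11865 genes in all.

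The cells were SH-SY5Y, an established line from a human neuroblastoma with noradrenergic neuronal features. In the siLSD1 group a small interfering RNA (siRNA) was directed at LSD1, a histone lysine demethylase encoded by KDM1A, and the siControl group was given a control siRNA. Each group held 2 arrays, from transfections that the submitters describe as independent, so every p-value measures the spread between transfections of 1 cell line, and the sources used here do not give the time between transfection and harvest. Levels are log2 signals of Affymetrix probe sets after quantile normalization, and a log2 fold change is siLSD1 minus siControl, so that 1 unit is a 2-fold difference.

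The reaction chain runs from glucose uptake and phosphorylation through the splitting of a hexose bisphosphate to pyruvate, which is reduced to lactate or burnt in mitochondria. Many of its enzymes exist as several isozymes, and one isozyme of a step often responds to oxygen while another does not. When oxygen is scarce, the alpha subunits of the hypoxia-inducible factors (HIF) are no longer hydroxylated by the EGLN enzymes and tagged for destruction by the VHL ubiquitin ligase. They then pair with ARNT and raise transcription of glycolytic genes and of genes for vessel growth, mitochondrial turnover and collagen hydroxylation. Neuroblastoma cells, like many tumour cells, run glycolysis at a high rate even with oxygen present.

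KDM1A was at 8.40 and 8.54 on the siLSD1 arrays, against 9.79 and 9.78 on the siControl arrays, which is 40.04% of the control level; its adjusted p in limma was 0.390 over all genes. In limma 0 of the 11865 genes passed an adjusted p of 0.05 (0% called), and 409 had an unadjusted p under 0.05, which is 3.45%. On siLSD1 replicate 2 the GAPDH control probe sets differed by 0.30 between the 3′ and the 5′ end of the transcript, on the deposited log2 scale. On siLSD1 replicate 1 and the 2 siControl arrays this difference lay between -0.03 and 0.0014. For ACTB it was 1.16 on siLSD1 replicate 2, against 0.71, 0.70 and 0.54 on the same 3 arrays. The 5′ control probe set of a ribosomal RNA was at 11.35 on siLSD1 replicate 2, against 7.46, 7.14 and 7.45. The middle one was at 10.99, against 8.67, 7.36 and 8.28, and the 3′ one at 2.57, against 2.57, 2.25 and 2.40. Of 10 noradrenergic markers 9 were measured and 8 lay above the filter level of 4.12, GATA3 and DBH among them, whereas TH did not. The 3 measured Schwann cell and glial markers all lay below it, and of the 4 measured blood markers HBB alone had a mean above it, at no more than 4.63. All 6 fibroblast markers had means above it, with values from 4.08 to 9.69, and 0 of them were called.

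No glycolytic or hypoxia-induced gene passed the test after LSD1 siRNA. Of the 30 tested members, 17 had a lower and 13 a higher mean on the siLSD1 arrays, with a median log2 fold change of -0.03, beside 0.0068 over all genes tested. Lower means made up 48.7% of all tested genes. The split depended on the scaling: with each array centred on its median, which moved the median of all genes to 0.18, 6 members were lower and 24 higher, and with the deposited scaling 19 were lower and 11 higher. The members' median was then 0.11 and -0.07, so it lay below that of all genes under all 3 scalings. It lay above that of all genes without siControl replicate 2 (-0.03 against -0.05) and without siLSD1 replicate 2 (-0.0050 against -0.02). In limma 0 members were called at an adjusted p under 0.05, with no adjusted p under 0.9996. An unadjusted p under 0.05 was reached by 1 lower and 0 higher members, beside 1.15% of all genes that were lower and 2.29% that were higher. The groups did not overlap for 5 of the 30 members, 4 lower and 1 higher, beside 31.7% of all genes. No member differed by 2-fold, and 2 differed by at least 1.5-fold, beside 7.71% of all genes.

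**Figure D1:**
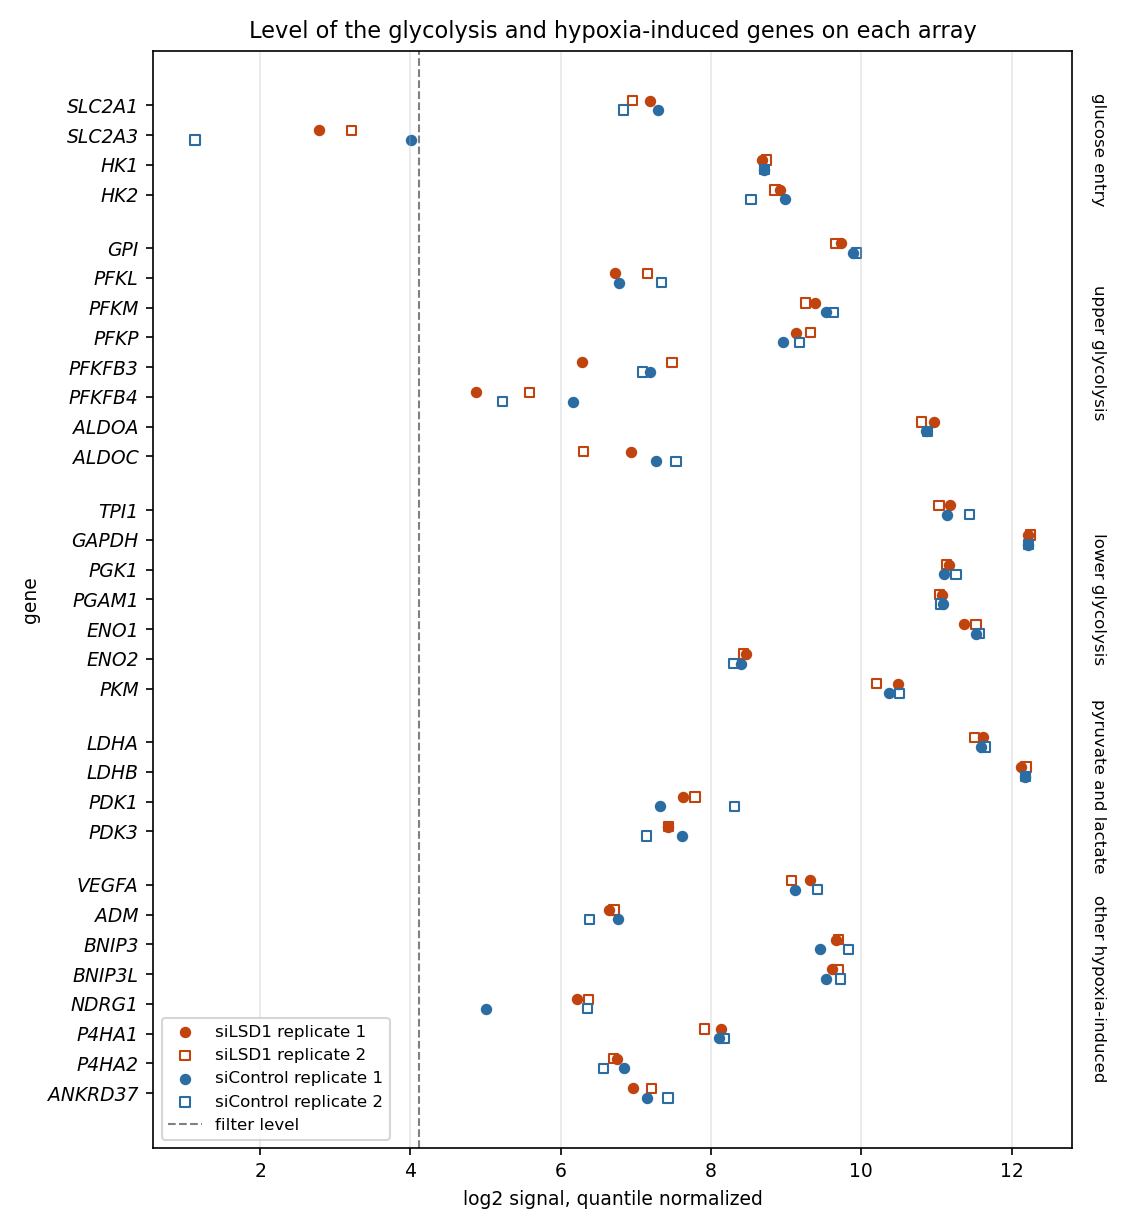
Log2 signal of the 31 measured members (horizontal axis) on each of the 4 arrays, ordered by role from glucose entry to the other hypoxia-induced genes. Orange symbols are siLSD1 and blue symbols siControl arrays, circles replicate 1 and open squares replicate 2, and the dashed line is the filter level of 4.12. The symbols of the 2 groups lie close together for most genes, SLC2A3 lies below the line, and NDRG1 has 1 siControl array far below the other 3.

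How large a difference could have been missed varied with the signal. The 95% interval of the fold change stayed within 1.5-fold in both directions for 16 members and within 2-fold for 26, and it included no change for 29 of the 30. The 9 members with a mean signal of at least 10 were ALDOA, TPI1, GAPDH, PGK1, PGAM1, ENO1, PKM, LDHA and LDHB, most of the central chain of the pathway. For the brightest probe set of each, the log2 fold changes ran from -0.19 to 0.01. Over these 9 probe sets the interval limits reached no lower than 0.735-fold and no higher than 1.18-fold. Other probe sets of the same genes above the filter level reached further. With them the log2 fold changes ran from -0.65 to 0.24 for ENO1 and from -0.30 to 0.05 for PGK1. For ALDOA they ran from -0.44 to 0.01, and for PKM from -0.40 to -0.10. The 95% interval of the ENO1 probe set at -0.65 ran from -1.24 to -0.06 on the log2 scale. All these intervals are of quantile-normalized values and leave out the uncertainty of the scaling. With the deposited scaling the 9 log2 fold changes ran from -0.25 to -0.05, and with median centring from -0.08 to 0.12. Their median absolute log2 fold change was 0.03, beside 0.08 over the 1024 tested genes of such signal. A level in a culture is that of all its cells together, so fewer cells with a transcript and less transcript per cell cannot be told apart.

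**Figure D2:**
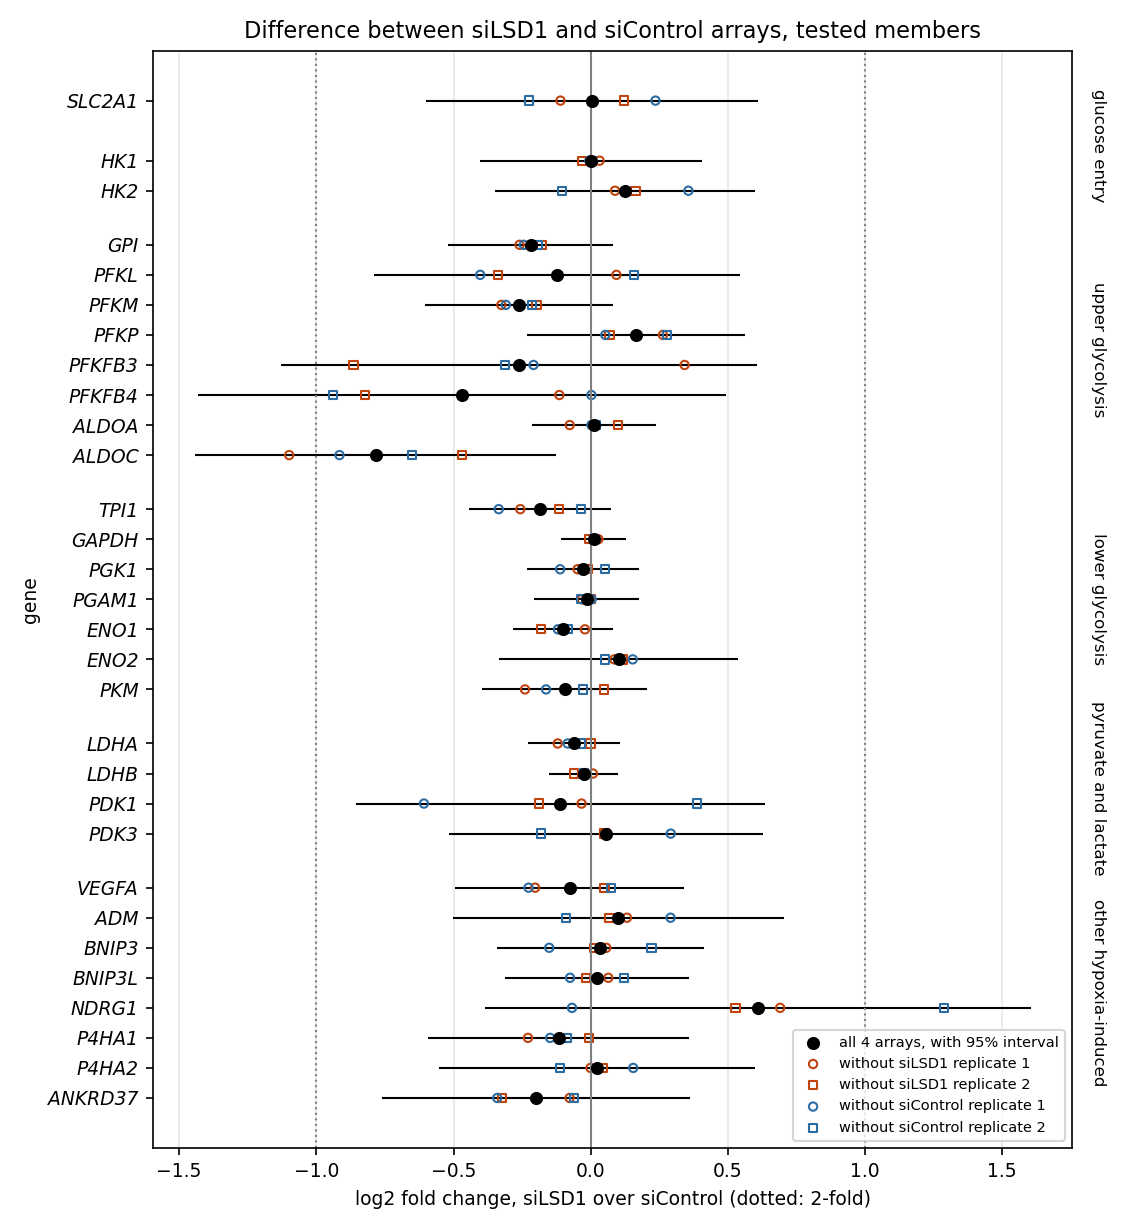
Log2 fold change of the 30 tested members (horizontal axis, siLSD1 over siControl), with black points for all 4 arrays and black lines for limma's 95% interval. Open symbols give the value with 1 array left out, orange for a siLSD1 and blue for a siControl array, and dotted lines mark 2-fold. ALDOC is the one member whose interval lies clear of 0, and leaving out siControl replicate 1 takes NDRG1 to -0.07.

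Glucose enters the cell through SLC2A1 and SLC2A3 and is trapped by the hexokinases HK1 and HK2. SLC2A1, the carrier of most cultured cells, was at 7.18 and 6.95 on the siLSD1 arrays, against 7.29 and 6.83 on the siControl arrays. The groups overlapped fully, and the log2 fold change was 0.0052 with a 95% interval from -0.60 to 0.61. SLC2A3, the carrier typical of neurons, had signals of 2.79 and 3.21 in siLSD1 cells, against 4.005 and 1.13 in siControl cells, and was too dim to be tested. HK1, the hexokinase of most tissues, was at 8.68 and 8.74, against 8.71 and 8.72. Its group means were 8.71 ± 0.05 and 8.71 ± 0.0068 (SD, n = 2 each), with an interval from -0.41 to 0.41. HK2, the hexokinase that HIF induces, was at 8.92 and 8.85 in siLSD1 cells, against 8.99 and 8.53 in siControl cells. The 2 siLSD1 values lay between the siControl values. The log2 fold change of 0.13 became -0.10 without siControl replicate 2 and 0.36 without siControl replicate 1.

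In the upper part of the pathway 6 of 8 members were lower and 2 higher, with a median log2 fold change of -0.24, and the group held the only member with an unadjusted p under 0.05. GPI, which interconverts the hexose phosphates, was at 9.73 and 9.65 in siLSD1 cells, against 9.89 and 9.94 in siControl cells. Both siLSD1 arrays were the lower ones, by a log2 fold change of -0.22 (95% interval -0.52 to 0.08; unadjusted p = 0.133 in limma). PFKM, the muscle-type subunit of phosphofructokinase, was at 9.38 and 9.26, against 9.53 and 9.63, again without overlap, with a log2 fold change of -0.26 (95% interval -0.60 to 0.08). The other subunits did not share this order. PFKL, the liver type, differed by -0.12 and PFKP, the platelet type, by 0.17 on the log2 scale, and the groups overlapped for both.

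The PFKFB enzymes make and break down the fructose bisphosphate that activates phosphofructokinase, and both are known as hypoxia-induced genes. PFKFB3 was at 6.28 and 7.48 in siLSD1 cells, against 7.19 and 7.09 in siControl cells. The siLSD1 arrays lay on either side of the controls, and the log2 fold change of -0.26 was 0.34 without siLSD1 replicate 1 and -0.86 without siLSD1 replicate 2. PFKFB4 was at 4.87 and 5.58, against 6.17 and 5.22. Its log2 fold change of -0.47 rested on siControl replicate 1, without which it was 0.0024. For both genes the direction turned when 1 array was left out.

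Aldolase splits the hexose bisphosphate, and it has isozymes typical of different tissues. ALDOC, the aldolase of brain and neurons, was at 6.94 and 6.30 in siLSD1 cells, against 7.27 and 7.54 in siControl cells. The higher siLSD1 value was below the lower siControl value, and the group means were 6.62 ± 0.45 and 7.40 ± 0.19 (SD, n = 2 each). ALDOC was thus 1.72-fold lower, with a log2 fold change of -0.78, a 95% interval from -1.44 to -0.13 and an unadjusted p of 0.0252 in limma. Its adjusted p was 0.9996, so the difference did not pass the threshold over all genes. The sign held under all 13 alternatives tried. With 1 probe set and groups that did not overlap, only the scalings could have turned it. The unadjusted p in limma was 0.107 with median centring. It was 0.266 without siLSD1 replicate 2, the array on which the GAPDH control probe sets differed between the ends, and 0.0927 when siControl replicate 2 was left out. The log2 fold change without 1 array ran from -1.10 without siLSD1 replicate 1 to -0.47 without siLSD1 replicate 2. A single probe set represented ALDOC, so no second measurement on the array bears on it. ALDOA, the aldolase of muscle and most other tissues, was at 10.97 and 10.80 in siLSD1 cells, against 10.87 and 10.88 in siControl cells, with a log2 fold change of 0.01 and an interval from -0.21 to 0.24.

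The stretch of DNA before the start of a gene can hold the core of the hypoxia response element, the letters ACGTG or GCGTG, to which HIF is known to bind. The 250 bases before the start are shown for ALDOC, the member that differed most, and for LDHA, PGK1 and ENO1. The latter are glycolytic genes known as HIF targets, and the differences of their brightest probe sets lay near 0. The sequences are from RefSeq (GRCh38.p14), written 5′ to 3′ on the strand of the gene, and capitals mark each match to either core on either strand.
ALDOC, chr17:28576896-28577145, minus strand: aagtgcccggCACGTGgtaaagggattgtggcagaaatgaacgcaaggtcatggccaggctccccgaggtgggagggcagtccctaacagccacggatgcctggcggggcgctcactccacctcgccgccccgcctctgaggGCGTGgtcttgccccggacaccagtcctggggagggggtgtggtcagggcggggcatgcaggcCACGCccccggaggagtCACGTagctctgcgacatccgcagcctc
LDHA, chr11:18394313-18394562, plus strand: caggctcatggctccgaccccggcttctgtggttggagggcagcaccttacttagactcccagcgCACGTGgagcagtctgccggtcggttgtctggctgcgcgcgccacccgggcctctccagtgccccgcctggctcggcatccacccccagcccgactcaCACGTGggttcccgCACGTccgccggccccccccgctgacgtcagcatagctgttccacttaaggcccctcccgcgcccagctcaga
PGK1, chrX:78103998-78104247, plus strand: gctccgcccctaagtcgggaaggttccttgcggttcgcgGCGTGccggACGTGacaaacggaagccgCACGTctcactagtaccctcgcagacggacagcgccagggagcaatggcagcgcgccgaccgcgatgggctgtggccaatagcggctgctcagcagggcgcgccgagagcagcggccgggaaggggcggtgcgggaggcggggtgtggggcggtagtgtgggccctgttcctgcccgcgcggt
ENO1, chr1:8878687-8878936, minus strand: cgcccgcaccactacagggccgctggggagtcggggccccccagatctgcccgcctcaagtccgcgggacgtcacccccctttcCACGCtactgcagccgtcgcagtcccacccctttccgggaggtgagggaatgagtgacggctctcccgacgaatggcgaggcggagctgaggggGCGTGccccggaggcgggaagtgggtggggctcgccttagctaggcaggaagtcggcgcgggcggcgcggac
The window of ALDOC holds 5 matches, that of LDHA 5, that of PGK1 3 and that of ENO1 2, where a match that reads the same on both strands, the palindrome CACGTG to which MYC proteins also bind, counts as 2 matches of ACGTG. The 5 matches of ALDOC are 3 of ACGTG and 2 of GCGTG, with 1 palindrome, and the 5 of LDHA are all of ACGTG, with 2 palindromes. The genes shown were picked partly by their differences, so a relation between matches and differences was not tested on them. A window at the outermost annotated start was available for 20 of the 33 listed genes. At least 1 core was present in 15 of the 20, which is 75%, beside 43.0% of 24882 promoter windows of the same length. The 14 tested members with a core had a median log2 fold change of -0.05, with 8 lower and 6 higher, and the 5 without one had a median of -0.03, with 3 lower and 2 higher. A match is a run of letters and not a measured binding site.

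The lower part of the pathway, from triose phosphates to pyruvate, had 5 lower and 2 higher members of 7 and a median log2 fold change of -0.03. With median centring PGK1, PGAM1, ENO1 and PKM turned higher, at 0.09, 0.11, 0.0015 and 0.04, and TPI1 stayed lower, at -0.08. TPI1, which interconverts the triose phosphates, was at 11.18 and 11.04 in siLSD1 cells, against 11.14 and 11.44 in siControl cells. The groups overlapped, and the log2 fold change of -0.19 was -0.04 without siControl replicate 2 and -0.34 without siControl replicate 1. GAPDH, the dehydrogenase that is widely used as a loading control, was at 12.22 and 12.25, against 12.23 and 12.23. Its log2 fold change of 0.01 had the narrowest limits of the members, from -0.11 to 0.13, or 0.929-fold to 1.09-fold. The 2 siControl values were identical after quantile normalization (SD 0). The GAPDH difference was -0.08 with the deposited scaling and 0.09 with median centring, a dependence that the limits leave out. PGK1, the kinase that makes ATP in this stretch and a HIF target, had a log2 fold change of -0.03 with limits from -0.23 to 0.18. Its 6 probe sets above the filter level, 4 lower and 2 higher, ran from -0.30 to 0.05. PGAM1, the phosphoglycerate mutase, had a log2 fold change of -0.02, with limits from -0.21 to 0.18.

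Enolase again has a ubiquitous and a neuronal form. ENO1, the ubiquitous one, was at 11.37 and 11.53 in siLSD1 cells, against 11.53 and 11.57 in siControl cells, a log2 fold change of -0.10 with groups that just did not overlap. ENO2, the neuronal enolase, was at 8.47 and 8.43, against 8.40 and 8.30. Both siLSD1 arrays were the higher ones, by 0.10 on the log2 scale, and this was the only member with separate groups in that direction (95% interval -0.33 to 0.54). PKM, the pyruvate kinase that ends the chain, was at 10.49 and 10.20, against 10.37 and 10.51. Its log2 fold change of -0.10 became 0.05 without siLSD1 replicate 2 and -0.24 without siLSD1 replicate 1.

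Pyruvate can be reduced to lactate by lactate dehydrogenase or kept from the mitochondria by the PDK kinases, which inhibit pyruvate dehydrogenase. LDHA, the hypoxia-induced subunit, was at 11.62 and 11.50 in siLSD1 cells, against 11.60 and 11.65 in siControl cells. Its log2 fold change was -0.06, and the interval from -0.23 to 0.11 places it between 0.853-fold and 1.08-fold. LDHB, the subunit of heart and brain, was at 12.13 and 12.19, against 12.18 and 12.19, with a log2 fold change of -0.03 and an interval from -0.15 to 0.10. For both subunits the groups overlapped. PDK1, a HIF target, was at 7.63 and 7.79 in siLSD1 cells, against 7.32 and 8.32 in siControl cells. Both siLSD1 values lay between the controls, and the log2 fold change of -0.11 was -0.61 without siControl replicate 1 and 0.39 without siControl replicate 2. PDK3, a kinase isoform that hypoxia also induces, was at 7.43 and 7.43, against 7.61 and 7.14, with a log2 fold change of 0.06.

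Hypoxia-induced genes outside glycolysis gave 3 lower and 5 higher members of 8, with a median log2 fold change of 0.02. The 3 lower ones, VEGFA, P4HA1 and ANKRD37, turned higher with median centring, at 0.12, 0.10 and 0.03. BNIP3, a mitochondrial protein that promotes the removal of mitochondria, was at 9.66 and 9.70 in siLSD1 cells, against 9.46 and 9.83 in siControl cells. Its relative BNIP3L had a log2 fold change of 0.02 beside 0.04 for BNIP3, and for both genes the siLSD1 values lay between the controls. ADM, a vasodilating peptide, differed by 0.10, which became -0.09 without siControl replicate 2 and 0.29 without siControl replicate 1. P4HA1 and P4HA2, the catalytic subunits of collagen prolyl hydroxylase, differed by -0.12 and 0.02. ANKRD37, an ankyrin repeat gene that HIF induces, was at 6.97 and 7.21, against 7.15 and 7.43. The groups overlapped, and its log2 fold change was -0.20 (95% interval -0.76 to 0.36). The direction turned with the mean of its probe sets, at 0.84, since the dim second one, below the filter level, differed by 1.87, and with median centring, at 0.03.

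NDRG1, a stress- and hypoxia-responsive gene also known for a role in myelinated nerves, had the largest higher mean. It was at 6.21 and 6.37 in siLSD1 cells, against 5.01 and 6.36 in siControl cells. Only siControl replicate 1 was low, and the other 3 arrays lay together. The log2 fold change of 0.61 had a 95% interval from 0.766-fold to 3.04-fold. It was -0.07 without siControl replicate 1 and 1.29 without siControl replicate 2.

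**Figure D3:**
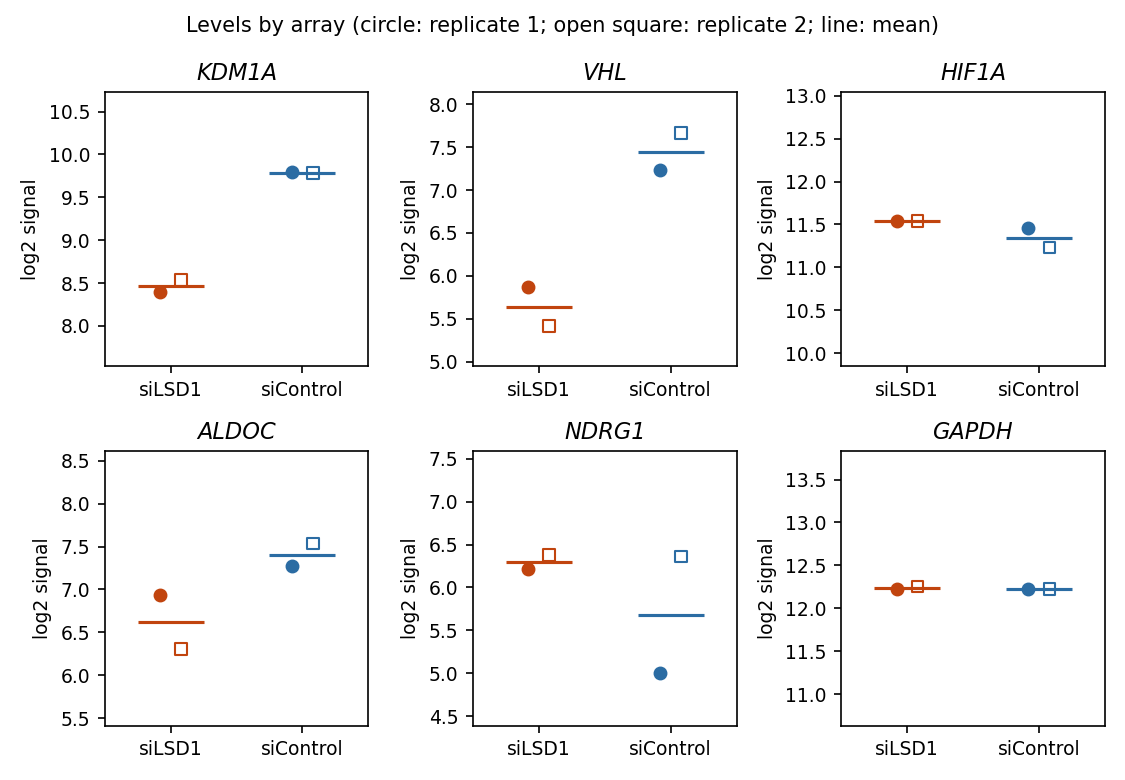
Log2 signal (vertical axis, the same span in each panel) of the siRNA target KDM1A, of VHL and HIF1A from the oxygen-sensing machinery, and of the members ALDOC, NDRG1 and GAPDH. Circles are replicate 1 and open squares replicate 2 of siLSD1 (left, orange) and siControl (right, blue), and lines are means. KDM1A, VHL and ALDOC have siLSD1 arrays below both siControl arrays, NDRG1 has 1 low siControl array, and the GAPDH values nearly coincide.

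Several members had more than 1 probe set, which allowed the same gene to be measured again on the same arrays. Of the 70 probe sets of members, 62 had a mean above the filter level, and 16 members had more than 1 of these. The differences had one sign over all such probe sets for 6 of the 16. With every probe set tested by itself, an alternative chosen after the data were seen, limma called 0 of the 62. At an unadjusted p under 0.05 it gave 4 of the 62, or 6.45%, beside 3.32% of all 24655 probe sets tested. One of the 4 was that of ALDOC, and the others were secondary probe sets of ENO1, PDK3 and VEGFA.

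VEGFA, the growth factor for blood vessels and a classical HIF target, is described here after its values were seen, since its probe sets gave different sizes of difference. Its main probe set was at 9.32 and 9.07 in siLSD1 cells, against 9.12 and 9.42 in siControl cells, a log2 fold change of -0.08. The other 3 VEGFA probe sets differed by -0.52, -1.02 and -0.81, so all 4 were lower. The probe set with the largest difference was at 5.87 and 4.64 in siLSD1 cells, against 6.33 and 6.23 in siControl cells, with an unadjusted p of 0.0488 in limma. All 4 had their lowest value on siLSD1 replicate 2, the array on which the GAPDH control probe sets differed between the ends. Without that array the 3 secondary values were -0.31, -0.41 and -0.23, and the main one was 0.05.

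ENO1 had a secondary probe set at 10.92 and 10.06 in siLSD1 cells, against 11.01 and 11.27 in siControl cells. Its log2 fold change of -0.65 was -0.22 without siLSD1 replicate 2, while its 2 other secondary probe sets differed by 0.04 and 0.24. PDK3 had a secondary probe set at 5.89 and 5.55, against 4.44 and 5.17, higher by 0.91 on the log2 scale and by 0.55 without siControl replicate 1. Of its other secondary probe sets one differed by -0.40 and another by 1.97. That probe set had 1.49 on siControl replicate 1, and its log2 fold change was 0.24 without that array. PDK1 also had secondary probe sets on both sides of 0, at -0.45 and 0.56. Among the 32 secondary probe sets above the filter level, 14 had their lowest value on siLSD1 replicate 2, 13 on siControl replicate 1, 3 on siLSD1 replicate 1 and 2 on siControl replicate 2. Over the 10418 such secondary probe sets of all genes, 31.0% had their lowest value on siLSD1 replicate 2 and 27.8% on siControl replicate 1. The part that the difference between the transcript ends has in these values was not tested.

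**Figure D4:**
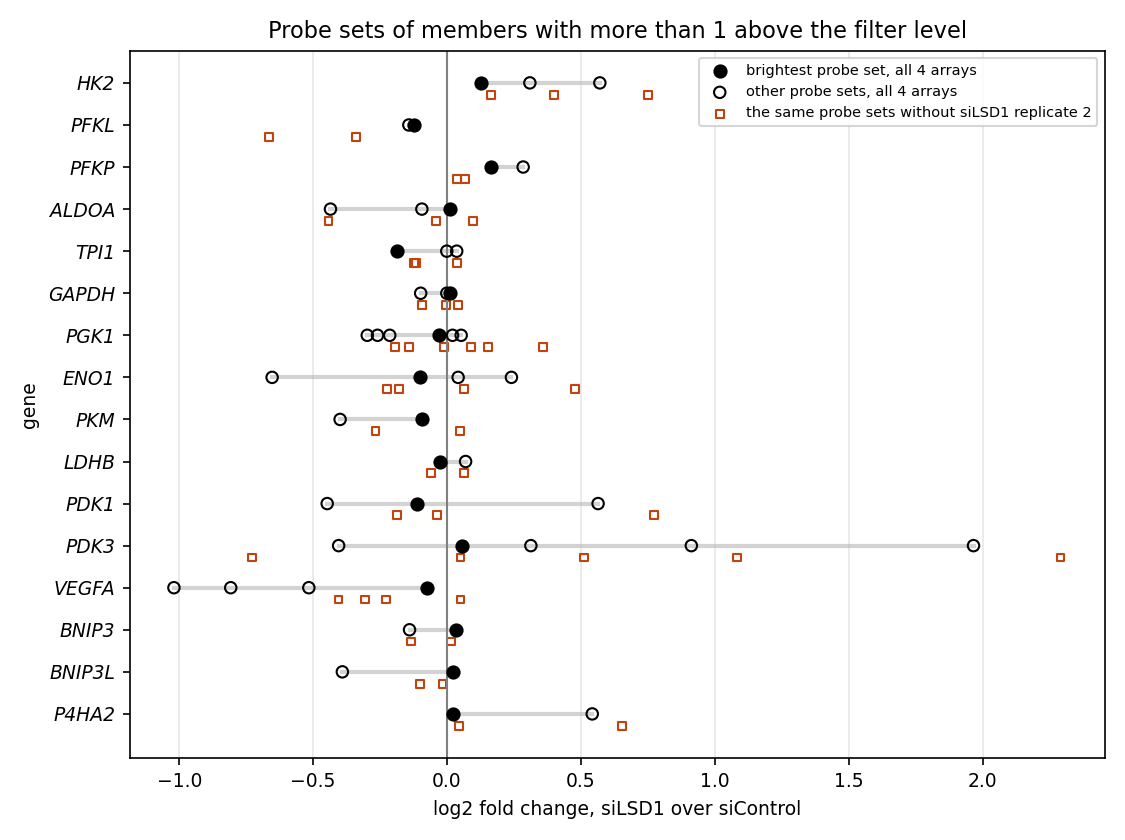
Log2 fold change (horizontal axis, siLSD1 over siControl) of every probe set above the filter level for the 16 members with more than 1. Filled circles are the brightest probe set, open circles the others, and orange squares the same probe sets without siLSD1 replicate 2. The 4 VEGFA values all lie below 0, and the PDK3 values range from -0.40 to 1.97.

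The machinery that senses oxygen was then set beside the members. Of 11 genes for HIF subunits and their regulators, 9 were bright enough to be tested, of which 5 had a higher and 4 a lower mean, with a median log2 fold change of 0.04, and limma called 0. VHL was at 5.87 and 5.41 in siLSD1 cells, against 7.23 and 7.66 in siControl cells, with a log2 fold change of -1.81 (95% interval -2.48 to -1.14, unadjusted p = 0.000237 and adjusted p = 0.9996 in limma). Its second probe set was below the filter level, at 1.55 and 2.42, against 1.63 and 0.705, and with the mean of both probe sets the log2 fold change was -0.49. HIF1A, the oxygen-regulated subunit, was at 11.55 and 11.54 in siLSD1 cells, against 11.46 and 11.23 in siControl cells, with a log2 fold change of 0.20 and an interval from -0.01 to 0.40. That value was 0.08 without siControl replicate 2 and 0.31 without siControl replicate 1. It was 0.12 with the deposited scaling (unadjusted p = 0.426 in limma). With median centring, where the median of all genes was 0.18, it was 0.29 (unadjusted p = 0.0185 in limma). EGLN1, the main oxygen-dependent hydroxylase, differed by 0.04, and EGLN3, itself a hypoxia-induced gene, by 0.49 with an interval from -0.52 to 1.51.

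Other genes of the same metabolism, listed by function, gave 0 calls in limma in any list. Of 24 further hypoxia-induced genes, 19 were tested, with 11 lower, 8 higher and a median log2 fold change of -0.06. SLC6A8, the creatine transporter, was at 8.13 and 8.30 in siLSD1 cells, against 7.05 and 7.86 in siControl cells. It was higher by 0.76 on the log2 scale (unadjusted p = 0.0299 in limma). Without siControl replicate 1 it was higher by 0.36, and without siControl replicate 2 by 1.17. DDIT4, an inhibitor of the growth kinase mTOR that stress and hypoxia induce, was at 7.74 and 7.05, against 7.63 and 8.76. Its log2 fold change of -0.80 was -0.24 without siControl replicate 2 and -1.37 without siControl replicate 1. Of the other glycolytic isozymes and carriers, 16 were measured and 9 lay below the filter level, HK3, the muscle mutase PGAM2 and the liver and red cell kinase PKLR among them. The 7 that were tested had a median of -0.13, with 6 lower and 1 higher, and PFKFB2 differed by -0.53 (unadjusted p = 0.144 in limma).

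In the pentose phosphate pathway, which branches off glucose phosphate, 3 of 6 tested genes were lower and 3 higher, with a median log2 fold change of -0.06. PGD, its second dehydrogenase, was at 9.82 and 9.43 in siLSD1 cells, against 9.87 and 9.94 in siControl cells, and differed by -0.28 (unadjusted p = 0.130 in limma). Among 23 tested genes for mitochondrial pyruvate use and the citric acid cycle, 13 were lower and 10 higher, with a median of -0.07. SDHC and SDHA, subunits of succinate dehydrogenase, had the smallest p and differed in direction, at -0.49 and 0.46.

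Relative to the mean of each gene, the members had a median of -0.0072 and 0.02 on the siLSD1 arrays, against 0.0034 and 0.07 on the siControl arrays. The value on siControl replicate 2 was the highest of the 4, and 15 of the 30 members had their highest level there, PGK1, LDHA, PDK1, VEGFA and BNIP3 among them. Another 6 members, SLC2A1, HK2, ENO2, PDK3, ADM and P4HA2, had their lowest level on the same array, so hypoxia-induced genes were in both sets. Over all tested genes, 16.4% had their highest level on that array. Without siControl replicate 2 the members' median was -0.03, as with all 4 arrays, and without siControl replicate 1 it was -0.08.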

How the data were processed

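Total RNA was labelled with biotin and hybridized to Affymetrix arrays, per the labels' protocols. The authors deposited log2 values, 1 per probe set and array, and the sources used here do not name their software. The log2 scale was found from the values: with the lowest and highest 2% of probe sets trimmed, the antilogs to base 2 averaged 100.0 per array. Deposited array medians spanned 0.27, so the arrays were quantile normalized, which would remove a difference in overall signal. Of 54675 probe sets, 41091 carried 1 gene symbol in the platform annotation of 2016 and 1801 carried several. Array control probe sets were kept out of the genes. Each gene took its brightest probe set, and genes with a mean below the 40th percentile (4.12) were left out. The test was that of limma 3.58.1 under R 4.3.3 (lmFit, eBayes with a mean-variance trend, two-sided, Benjamini-Hochberg over all 11865 genes, threshold 0.05), a test with 8.22 degrees of freedom. The script was tested on simulated data. An exact permutation test of 2 against 2 arrays cannot go below 0.333, and the few arrays limit the precision. Arrays were grouped by their titles, and the title of siLSD1 replicate 2 gives the target as LSD. Alternatives covered scaling, filter, variance model, choice of probe sets, a replicate block and leaving out each array. The members, the gene lists and the rule for genes with values on every array (unadjusted p under 0.05, the 8 largest differences, the brightest of each role, and probe sets that disagreed by over 0.5) were chosen with earlier results of these data known.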

Additional observations from a re-analysis of the deposited data

How the results depend on the processing

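None of the 30 tested members was called under any of the 14 alternatives, each of which left 0 member calls. The members' median log2 fold change of -0.03 was -0.0667 with the deposited scaling and 0.11 with median centring, and it ran from -0.0797 to -0.0050 when 1 array was left out. A sign held over all alternatives for 5 members, ALDOC, GPI, PFKM, PFKP and ENO2, and turned for 20 when 1 array was left out. ALDOC, GPI, PFKM and ENO2 had 1 probe set each and groups that did not overlap. For them only the scalings could have turned the sign. Over all genes 0 calls became 83 without siControl replicate 2 (82 higher, 1 lower), 1 without siLSD1 replicate 1, and 0 without either other array, so that leaving out 1 array gave from 0 to 83. Without siControl replicate 2 KDM1A was among them (adjusted p = 0.0474 in limma). The lone array is there assumed to vary like the other group. The arrays of 2 groups shared replicate numbers, but the labels do not say that a number marks a shared batch, so the numbers were not taken as pairs. Over genes the replicate differences correlated with r = 0.05. With the replicate block 13 genes were called (10 higher, 3 lower), KDM1A and VHL among them at an adjusted p of 0.0194 in limma, with 0 members called and a members' median of -0.03. The cause of these moves was not tested.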
